A study of Mus musculus with 12 samples.

Results

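The transcription factor p53 and 9 genes listed among its targets were followed in the colon of mice with and without chemically induced colitis. The 10 genes, taken by symbol from the count table, were Trp53, which encodes p53, and Mdm2, Cdkn1a, Bax, Ccng1, Ccng2, Sesn1, Sesn2, Cd82 and Fas, of 54532 genes in all. All 10 were among the 16904 genes that passed a filter on low counts. Colonic RNA was sequenced from 12 male wild-type C57BL/6J mice, 5 weeks old, with 3 mice in each of 4 groups. Control mice were left without DSS (dextran sodium sulfate), a sulfated polysaccharide that damages the lining of the colon. Model mice were given DSS alone. The Rhy group received DSS with rhynchophylline, an alkaloid of Uncaria, and the DXM group received DSS with dexamethasone, a glucocorticoid, at 4 mg/kg. Rhy was used in the study at 2, 4 or 8 mg/kg, and the labels do not say which dose the sequenced mice received. No allele was modified in any group. Each library is called a mouse here, although the labels do not state that the samples of a group came from separate animals.

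In resting cells p53 is made continuously and degraded through the ubiquitin ligase MDM2, so its mRNA level and its activity are separate quantities. DNA damage and other stresses stabilise the protein, which then binds DNA as a tetramer and raises the transcription of genes that halt the cell cycle (Cdkn1a), open the mitochondrial membrane (Bax), carry death signals (Fas) or limit oxidative stress and mTOR signaling (Sesn1, Sesn2), together with Mdm2, its own inhibitor. In the gut, p53 and its targets are known for the response of crypt cells to radiation and cytotoxic drugs. Several of the targets also answer to other factors, among them Ccng2 and Sesn1 to FOXO proteins and Sesn2 to the amino acid and unfolded protein response. The p53 protein was not measured here.

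A p53 binding site is made of a pair of half-sites of 10 bases, placed side by side. The p53 consensus half-site was searched in 15 promoter windows of the 10 genes, each from 250 bases before to 50 bases after a transcription start in RefSeq on GRCm38.p6. A perfect half-site was present in 1 window each of 6 of the 10 genes (Trp53, Mdm2, Cdkn1a, Bax, Ccng1 and Sesn1), and 8.36% of all 32851 mouse promoter windows held one. A full site of 20 bases with at most 1 mismatch was present in 2 of the 15 windows, those of Cdkn1a and Ccng1, and in 0.0883% of all windows. No half-site was present in the windows of Ccng2, Sesn2, Cd82 and Fas, which says only that these letters are not in these windows. The FOXO motif GTAAACA, searched on both strands, was present in 2 of the 15 windows (Mdm2 and the first of Sesn1) and in 3.65% of all windows.

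The stretches upstream of 4 of the genes are shown. Cdkn1a and Ccng1 carry the full sites, while Fas and Sesn2, among the genes with the largest differences between groups, carry none in their windows. Each runs 5′ to 3′ on the gene's own strand and ends at the last base before the gene as annotated in the count table, at chr17:29090729-29090975 (plus strand) for Cdkn1a, chr11:40755312-40755536 (minus strand) for Ccng1, chr19:34290409-34290658 (plus strand) for Fas and chr4:132510502-132510706 (minus strand) for Sesn2. The capitals mark perfect half-sites and full sites with at most 1 mismatch.
Cdkn1a: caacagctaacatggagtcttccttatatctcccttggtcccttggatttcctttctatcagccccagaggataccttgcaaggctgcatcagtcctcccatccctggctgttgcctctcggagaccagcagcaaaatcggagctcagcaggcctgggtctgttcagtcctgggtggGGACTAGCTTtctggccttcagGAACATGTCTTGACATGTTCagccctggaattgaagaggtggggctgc
Ccng1: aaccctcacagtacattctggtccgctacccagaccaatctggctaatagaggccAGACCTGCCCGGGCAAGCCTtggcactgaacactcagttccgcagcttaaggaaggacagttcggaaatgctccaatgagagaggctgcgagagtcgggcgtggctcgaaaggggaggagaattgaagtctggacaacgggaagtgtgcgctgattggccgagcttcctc
Fas: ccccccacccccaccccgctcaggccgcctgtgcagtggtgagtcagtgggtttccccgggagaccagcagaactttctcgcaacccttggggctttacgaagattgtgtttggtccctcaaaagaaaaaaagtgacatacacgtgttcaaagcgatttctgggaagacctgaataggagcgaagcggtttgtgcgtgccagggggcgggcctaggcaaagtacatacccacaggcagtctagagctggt
Sesn2: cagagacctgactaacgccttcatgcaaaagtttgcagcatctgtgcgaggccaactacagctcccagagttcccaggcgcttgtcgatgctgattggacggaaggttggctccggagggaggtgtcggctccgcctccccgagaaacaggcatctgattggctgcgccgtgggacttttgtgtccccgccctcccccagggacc
The full site of Cdkn1a lies at chr17:29090928-29090947, and a further half-site precedes it. The full site of Ccng1 lies at chr11:40755462-40755481. Sites outside the windows were not searched, and the second window of Cdkn1a held no half-site. These 2 genes, with the most complete sites in the windows searched, differed in their behavior between the groups, as described next. Cdkn1a was lower in each DSS-exposed group mean than in the control mean, and Ccng1 was not. A link between sites and levels was not tested.

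Per length, in FPKM as deposited, the mean level over the 12 libraries ranged from 4.62 for Sesn1 to 85.6 for Cd82. Cd82, a tetraspanin of the cell surface, and Cdkn1a, a cyclin-dependent kinase inhibitor (60.3 FPKM), were the most abundant. Bax, a pore-forming protein of the mitochondrial death pathway, had 34.1 FPKM, Ccng2 had 28.6 and Ccng1 had 22.2, and Trp53 itself had 11.5. Fas, a death receptor, had 8.65 FPKM, Sesn2 had 7.44 and Mdm2 had 7.31. The genes also differed in how far they varied among the 12 mice, in CPM, a count relative to the size of its library as scaled by TMM. The highest library exceeded the lowest 6.53-fold for Sesn2, 4.31-fold for Cdkn1a, 3.68-fold for Ccng2, 2.84-fold for Fas and 2.73-fold for Sesn1. For Bax, Cd82, Trp53, Mdm2 and Ccng1 this ratio was between 1.77 and 2.19.

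**Figure D1:**
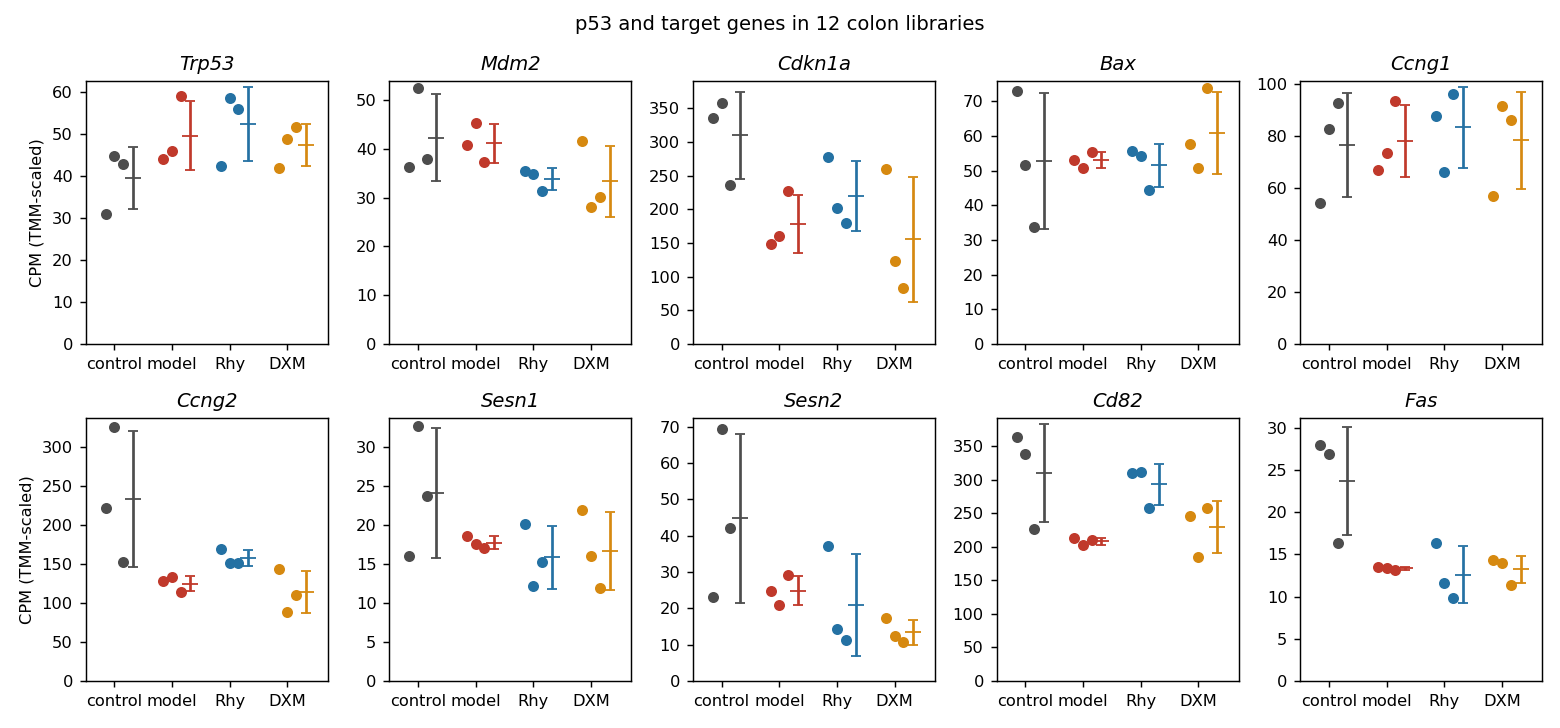
Level of each gene in CPM (vertical axes start at 0) in every library, by group. Points are single mice, numbered 1 to 3 from left to right within a group, and the bar beside them is the mean ± SD (n = 3). The 3 control points of Fas lie above all 9 DSS-exposed points, with control 3 and Rhy 1 nearly level, while the points of Bax and Ccng1 overlap between all groups.

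Before the comparisons, 3 features of the libraries need stating. Total counts were 14346478 to 17749716 per library. Model mice 1 and 2 gave libraries far more alike than any other pair: the variance between them was 1.90 times the Poisson expectation, against 12.2 and 13.1 for their comparisons with model mouse 3, so results on the model group are also given with those 2 mice counted as 1 library. The mitochondrial share of counts ran from 6.33% to 25.7%, and Hoxb13, a gene of the distal colon, was under 5 CPM in control 3, model 3 and Rhy 1. The epithelial markers of the colon summed to between 13745 and 24095 CPM, present in every library. In whole tissue, fewer cells of a type and less RNA per cell cannot be told apart.

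Trp53, the gene of p53 itself, differed little between groups. Its level was 31.1, 44.9 and 42.8 CPM in the control mice, 44.0, 46.1 and 59.0 in the model mice, 42.4, 58.7 and 56.1 in the Rhy mice and 42.0, 48.8 and 51.7 in the DXM mice. The 4 groups overlapped, and the lowest value was that of control 1. The mean was highest in Rhy (52.4 ± 8.78 CPM, SD, n = 3), then model (49.7 ± 8.15), DXM (47.5 ± 4.96) and control (39.6 ± 7.44). No neighbours in this order differed beyond their spread. Mdm2, the ligase that degrades p53, was 36.3, 52.5 and 37.9 CPM in control, 40.6, 45.2 and 37.3 in model, 35.4, 34.9 and 31.2 in Rhy and 41.6, 28.2 and 30.1 in DXM. The 3 Rhy mice lay below the 3 model mice and below the 3 control mice, while the DXM mice overlapped with every group.

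Cdkn1a, whose product p21 halts the cell cycle, was 335.8, 357.6 and 235.6 CPM in control, 148.0, 160.8 and 227.8 in model, 278.3, 202.2 and 179.8 in Rhy and 260.3, 123.6 and 83.0 in DXM. All 3 control mice exceeded all 3 model mice, and Rhy and DXM overlapped with the model group. The spread was widest in DXM, with a mean of 156 ± 92.9 CPM (SD, n = 3). In Rhy and in DXM the mouse with the most Cdkn1a was also the one with the highest mitochondrial share (23.8% in Rhy 1 and 25.7% in DXM 1), and the mouse with the least had the lowest share (8.90% in Rhy 3 and 7.48% in DXM 3). In control the 2 mice with more Cdkn1a had 21.0% and 17.0% and the third had 6.33%, whereas in model the mouse with the most Cdkn1a had the lowest share of its group, 11.1%. With the mitochondrial percent as a term in the fit, the log2 fold change of Cdkn1a was -0.65 in place of -0.79 in model against control, 0.089 in place of 0.30 in Rhy against model and -0.40 in place of -0.20 in DXM against model.

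The 2 cyclin G genes gave different patterns. Ccng2, a cyclin of non-dividing cells, was 221.5, 325.9 and 153.2 CPM in control, 127.8, 133.2 and 113.8 in model, 169.3, 151.8 and 151.4 in Rhy and 143.3, 88.6 and 110.6 in DXM. Every model mouse lay below every control mouse, and every Rhy mouse lay above every model mouse, with Rhy overlapping control at its lower end. Ccng1, which recruits a phosphatase to MDM2, was 54.3, 82.8 and 92.5 CPM in control, 66.9, 73.6 and 93.5 in model, 87.8, 66.2 and 96.2 in Rhy and 57.1, 91.6 and 86.3 in DXM. Its 4 group means lay between 76.6 and 83.4 CPM, a range smaller than the SD of any group.

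The sestrins, which restrain mTORC1, were highest in control 2. Sesn2 was 23.1, 69.4 and 42.2 CPM in control, 24.7, 20.9 and 29.1 in model, 37.2, 14.4 and 11.2 in Rhy and 17.3, 12.4 and 10.6 in DXM. The 3 DXM mice lay below the 3 model mice and the 3 control mice, while the model and Rhy mice overlapped with control, whose lowest mouse was near the model values. Sesn1 was 15.9, 32.7 and 23.7 CPM in control, 18.6, 17.6 and 17.0 in model, 20.1, 12.1 and 15.2 in Rhy and 21.9, 16.1 and 12.0 in DXM, and the 4 groups overlapped.

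The cell-surface and death genes gave different pictures. Fas was 27.9, 26.9 and 16.4 CPM in control, 13.5, 13.4 and 13.1 in model, 16.4, 11.6 and 9.85 in Rhy and 14.3, 13.98 and 11.3 in DXM. The lowest control mouse was 16.358 CPM and the highest DSS-exposed mouse, Rhy 1, was 16.352 CPM, so the groups were apart by a margin far below the spread within a group. Those 2 mice, control 3 and Rhy 1, were among the 3 with Hoxb13 under 5 CPM, and control 3 also had the lowest sum of B cell markers of the control mice (10.3 CPM, against 142 and 191). Rhy 1, the DSS-exposed mouse with the most Fas, had the lowest sums of all 12 mice for B cell markers (1.63 CPM) and T cell markers (6.25 CPM). T cell markers, whose cells also carry Fas, summed to 15.4 to 30.3 CPM in control, 17.8 to 26.6 in model, 6.25 to 17.1 in Rhy and 11.4 to 24.7 in DXM, and the part of either cell type in the Fas values was not tested. Cd82 was 363.1, 339.1 and 226.2 CPM in control, 212.5, 202.3 and 209.8 in model, 310.4, 311.4 and 257.1 in Rhy and 245.8, 185.0 and 257.4 in DXM. The model mice lay below all control and all Rhy mice, and DXM overlapped with each of the others. Bax was 72.9, 51.7 and 33.7 CPM in control, 53.2, 50.8 and 55.3 in model, 55.6, 54.3 and 44.5 in Rhy and 57.8, 50.9 and 73.8 in DXM, and its control values alone spanned most of the range.

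The first comparison asked how DSS colitis altered the 10 genes. In model against control, 7 of the 10 fitted log2 fold changes were below 0, against 49.3% of all genes tested, and the median was -0.51 for the 10 genes and 0.01 for all genes. The lowest were Ccng2 (log2 fold change -0.90, SE 0.26), Sesn2 (-0.85, SE 0.46), Fas (-0.83, SE 0.25), Cdkn1a (-0.79, SE 0.37), Cd82 (-0.57, SE 0.21) and Sesn1 (-0.44, SE 0.30). Trp53 lay on the other side (0.33, SE 0.20), and Mdm2, Bax and Ccng1 were within 1 SE of 0. With edgeR's quasi-likelihood test and Benjamini-Hochberg adjustment over all genes, 0 of the 10 genes passed an adjusted p of 0.05, as did 0% of all genes, and the lowest adjusted p among the 10 was 0.459. At an unadjusted p under 0.05 there were 3 of the 10 (Ccng2, Fas and Cd82), all lower in model, against 9.62% of all genes, of which 4.51% were lower. DESeq2 and limma also passed 0 of the 10 after adjustment. The 3 model mice lay entirely below the 3 control mice for 4 of the 10 (Cd82, Cdkn1a, Ccng2 and Fas), against 6.61% of all genes. For each of these the exact permutation p was 0.1, two-sided, the smallest that 3 against 3 allows. With model mice 1 and 2 as 1 library, 2 of the 10 had an unadjusted p under 0.05, as did 866 of all genes. Without control 2 the log2 fold change of Ccng2 was -0.58. The summed mitosis markers were also apart, at 204 to 365 CPM in control and 390 to 530 CPM in model, and their part in the differences was not tested.

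**Figure D2:**
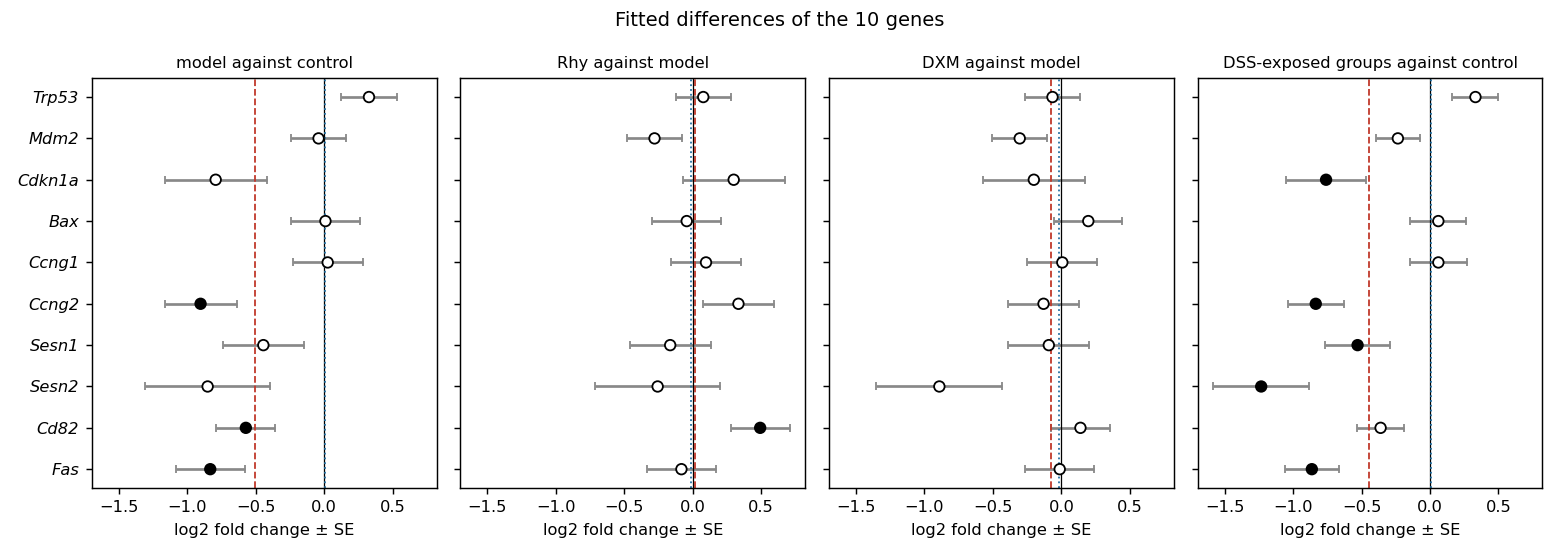
Fitted log2 fold change (edgeR) of the 10 genes ± SE in 4 comparisons, first group relative to the second. Filled points had an unadjusted p under 0.05, no point passed after adjustment, and the lines mark the median of the 10 genes (dashed) and of all 16904 genes (dotted). The medians were -0.51 in model against control and 0.02 in Rhy against model.

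The second comparison asked whether Rhy moved the genes in DSS-treated mice. In Rhy against model, 5 of the 10 log2 fold changes were below 0, against 51.7% of all genes. Cd82 was higher in Rhy (293 ± 31.1 CPM against 208 ± 5.26, SD, n = 3 each; log2 fold change 0.49, SE 0.21), as was Ccng2 (157 ± 10.2 against 125 ± 9.98 CPM; 0.33, SE 0.26). Mdm2 was lower (33.9 ± 2.28 against 41.1 ± 3.94 CPM; -0.28, SE 0.20). The other 7 genes were within 1 SE of 0. With edgeR, 0 of the 10 genes and 0% of all genes passed an adjusted p of 0.05, and DESeq2 and limma also passed 0 of the 10. Cd82 alone had an unadjusted p under 0.05, which is 1 of the 10 against 3.72% of all genes. The Rhy mice lay entirely above the model mice for 2 of the 10 (Cd82 and Ccng2), against 5.51% of all genes, and entirely below for 1 (Mdm2), against 6.02%. Marker sums of 4 cell types were also apart between these groups. Colon epithelial markers (18637 to 22257 CPM in Rhy, 15171 to 18126 in model) and smooth muscle markers (6494 to 7332 in Rhy, 4214 to 5482 in model) were higher in Rhy. T cell markers (6.25 to 17.1 CPM in Rhy, 17.8 to 26.6 in model) and B cell markers (1.63 to 112 in Rhy, 121 to 154 in model) were lower, and their part in the values of Cd82, Ccng2 and Mdm2 was not tested. The unadjusted p of Cd82 was 0.041 with all libraries and 0.088 with model mice 1 and 2 as 1 library, and it was above 0.05 when any 1 of the 3 model mice, Rhy 1 or Rhy 2 was left out. Without Rhy 1, the log2 fold change of Sesn2 was -0.96, with an unadjusted p of 0.036, in place of a value within 1 SE of 0 (-0.26). Against control, Fas (log2 fold change -0.91, SE 0.25) and Sesn2 (-1.11, SE 0.46) were lower in Rhy with an unadjusted p under 0.05, 2 of the 10 against 11.6% of all genes, and 0% of all genes passed after adjustment (adjusted p 0.364 for Fas with edgeR). DESeq2 and limma also passed 0 of the 10 there. The Rhy mice lay entirely below the control mice for Fas and Mdm2, 2 of the 10, against 4.79% of all genes. Model and Rhy were both set against the same control mice.

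The third comparison set DXM against model. Here 7 of the 10 log2 fold changes were below 0, against 51.5% of all genes, with a median of -0.08. Sesn2 stood out in size (13.4 ± 3.44 CPM in DXM against 24.9 ± 4.07 in model, SD, n = 3 each; log2 fold change -0.89, SE 0.46), followed by Mdm2 (-0.30, SE 0.20), and the other 8 genes were within 1 SE of 0. With edgeR 0 of the 10 genes passed an adjusted p of 0.05 (0% of all genes did), and 0 of the 10 had an unadjusted p under 0.05, against 7.69% of all genes. The DXM mice lay entirely below the model mice for Sesn2, 1 of the 10, against 12.2% of all genes. Marker sums that were also apart between these groups are given further below. DESeq2 on these 6 libraries gave Sesn2 an adjusted p of 0.041, and DESeq2 on all libraries and limma passed 0 of the 10. The number of all genes that passed in the fit of 6 libraries is not given here. In model against control, DESeq2 on only the groups compared passed 167 of all genes and edgeR passed 0. The call is therefore no result about Sesn2 in particular. One mouse, DXM 1, weighed on this comparison. Without it, the log2 fold change of Cdkn1a against model was -0.79 in place of -0.20. Cdkn1a and Mdm2 then had an unadjusted p under 0.05, and the number of all genes that did is not given here. Against control, Cdkn1a, Ccng2, Sesn2 and Fas were lower in DXM with an unadjusted p under 0.05, 4 of the 10 against 18.9% of all genes (10.2% lower), with 0% of all genes passing after adjustment. Sesn2 had the largest difference (log2 fold change -1.74, SE 0.47, adjusted p 0.130 with edgeR). Ccng2, Sesn2 and Fas were apart, 3 of the 10 against 8.89% of all genes, and these 3 passed an adjusted p of 0.05 in DESeq2 on all libraries. The share of all genes that passed in that DESeq2 fit is not given here. Colon epithelial markers were also apart and lower in DXM (13745 to 16835 CPM, against 16877 to 24095 in control). Fat cell markers were apart and higher in DXM (38.8 to 57.7 CPM, against 14.9 to 27.3). The summed position markers Hoxb13, Hoxd13 and Hoxa13 were also apart and higher in DXM (270 to 442 CPM, against 24.9 to 215). The part of these markers and of colon position in these differences was not tested.

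**Figure D3:**
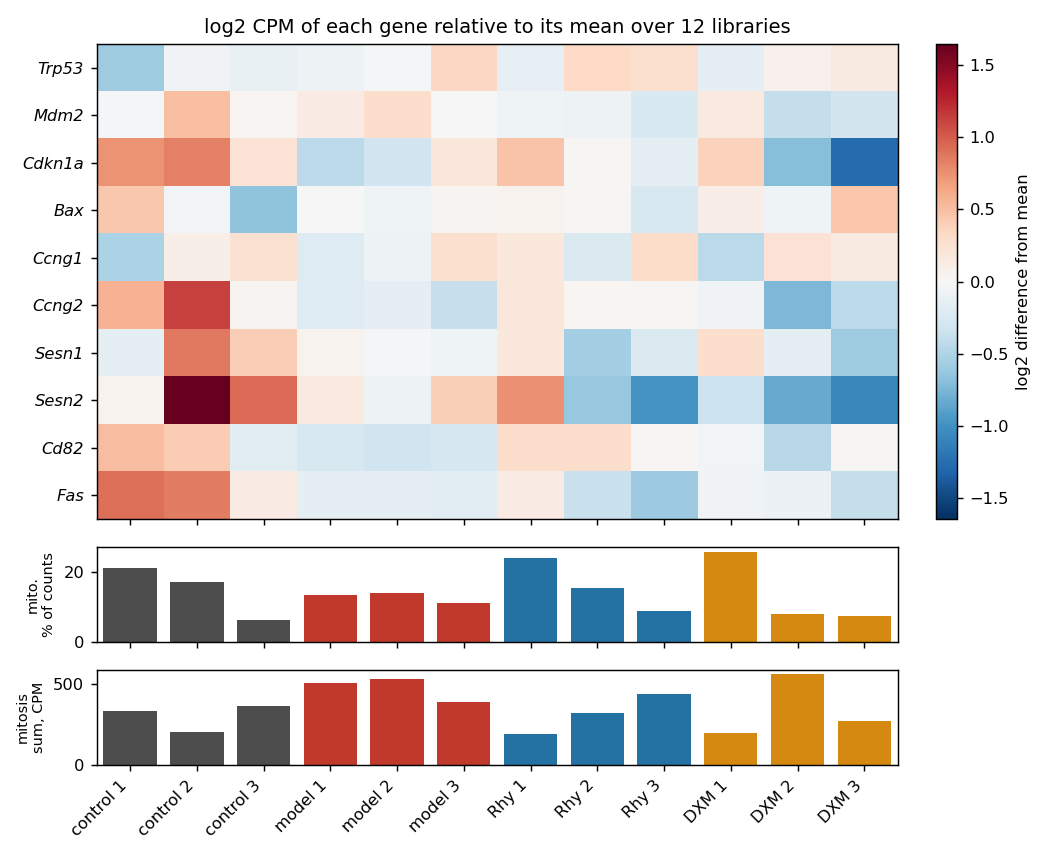
Upper panel, log2 CPM of each gene in each library minus its mean over 12 libraries (colour scale). Lower panels, the mitochondrial percent of counts and the summed CPM of 12 mitosis markers, with bars from 0 coloured by group. Control 2 has the highest Sesn2, Ccng2 and Cdkn1a, and DXM 3 the lowest Cdkn1a and Sesn2.

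Taking the 9 DSS-exposed mice together, as the mean of the 3 groups, gave the most precise contrast with control. Of the 10 genes, 7 were below 0, against 49.2% of all genes, and the median log2 fold change was -0.44 (0.01 for all genes). Sesn2 (-1.23, SE 0.35), Fas (-0.86, SE 0.19), Ccng2 (-0.83, SE 0.20), Cdkn1a (-0.76, SE 0.29) and Sesn1 (-0.53, SE 0.23) were lower in the exposed mice with an unadjusted p under 0.05, 5 of the 10 against 17% of all genes and 9.19% in this direction. Cd82 (-0.36, SE 0.17), Mdm2 (-0.23, SE 0.16) and Trp53 (0.33, SE 0.17) exceeded their SE, and Bax and Ccng1 did not. With edgeR, 0 of the 10 genes and 0% of all genes passed an adjusted p of 0.05. The adjusted p was 0.139 for Fas and for Ccng2, 0.143 for Sesn2, 0.221 for Cdkn1a and 0.279 for Sesn1. Fas was the only 1 of the 10 with the control mice apart from all 9 exposed mice, against 1.33% of all genes, and its exact permutation p was 0.00455, two-sided, the smallest that 9 against 3 allows. Both rest on control 3 (16.358 CPM) lying barely above Rhy 1 (16.352 CPM). The exact permutation p was 0.00909 for Ccng2, 0.0227 for Sesn2 and for Cdkn1a and 0.0409 for Sesn1. With model mice 1 and 2 as 1, the exact permutation p was 0.00606 for Fas, 0.0121 for Ccng2, 0.0242 for Sesn2, 0.0303 for Cdkn1a and 0.0545 for Sesn1. These 9 mice belong to groups with different treatments, so the permutation treats as alike what the study treated differently.

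The calls of this pooled contrast moved with the method and with a few libraries. The number of all genes called moves with such settings too: in model against control it was 0 with edgeR and 46 with DESeq2 on all libraries. It is not given beside the counts below, so these counts are no result about the 10 genes in particular. DESeq2 on all libraries passed 3 of the 10 at an adjusted p of 0.05 (Fas, Ccng2 and Sesn2), and limma passed 0. With the mitochondrial percent as a term in the edgeR fit, added after seeing the data, 4 of the 10 passed. These were Fas (log2 fold change -0.82, adjusted p 0.018), Ccng2 (-0.80, adjusted p 0.026), Cdkn1a (-0.76, adjusted p 0.046) and Sesn2 (-1.29, adjusted p 0.049). Without the term these log2 fold changes were -0.86, -0.83, -0.76 and -1.23, and the part of the mitochondrial share was not tested. With the 3 libraries of low Hoxb13 left out, also a setting added after seeing the data, 2 of the 10 passed. These were Fas (log2 fold change -1.17, adjusted p 0.046) and Ccng2 (-1.09, adjusted p 0.048). Without control 2, the highest control for Cdkn1a, Ccng2, Sesn1 and Sesn2, the log2 fold changes were -0.77 for Sesn2, -0.51 for Ccng2 and -0.25 for Sesn1, and 2 of the 10 (Fas and Ccng2) had an unadjusted p under 0.05.

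The 10 genes did not move as a block across the 12 mice. Over the 45 pairs, 27 had a positive Pearson r of log2 CPM, with a median of 0.17. The most alike pairs were Sesn1 with Sesn2 (r = 0.84), Ccng2 with Cd82 (0.81) and Cdkn1a with Ccng2 (0.79), and the least alike was Trp53 with Fas (-0.76). Trp53 was also on the opposite side from Cdkn1a (r = -0.46), its best known target. These values describe 12 libraries that share the 4 groups, and libraries that differ in mitochondrial share, and carry no test.

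Among all 16904 genes, those whose log2 CPM followed each of the 10 most closely over the 12 libraries were found by Pearson r, 2 per gene. For Cdkn1a they were Ano10 and Espn (r = 0.97 each), the latter an actin-bundling protein of microvilli. For Sesn2 they were Tmem94 and Zbtb7b (both 0.98), for Ccng1 Selenot (0.98) and Tmed7 (0.96), proteins of the secretory pathway, and for Ccng2 Riok3 (0.96) and Osbpl3 (0.95). Fas was followed by Blnk (0.95), an adaptor of B cell receptor signaling, and Grpel2 (0.94), and Trp53 by Polr1e (0.94), a subunit of RNA polymerase I, and Dyrk3 (0.94). Sesn1 was followed by Gdpd2 (0.95) and Dgkd (0.94), Bax by Gm6210 (0.93) and Tecr (0.89), Cd82 by Map4 (0.93) and Tmem45b (0.91), and Mdm2 by Prkcd (0.92) and Prmt2 (0.90). No member of the set of 10 was among these genes.

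A wider list of 54 p53 genes placed the 10 in their pathway, and 50 of these were tested. Trp63 and Trp73, the p53 relatives, Cdkn2a and Sco2 had too few counts, with Trp63 and Trp73 at or below 0.274 CPM in every library. In model against control, 28 of the 50 had a log2 fold change above 0 and 22 below, against 49.3% of all genes below, and the median was 0.08, beside the -0.51 of the 10 genes. Of the 50, 6 were higher and 2 lower at an unadjusted p under 0.05, against 5.11% and 4.51% of all genes, and 0 passed an adjusted p of 0.05 with edgeR. The higher genes were led by the checkpoint kinases Chek2 (log2 fold change 0.95, SE 0.27) and Chek1 (1.19, SE 0.44), by the DNA clamp Pcna (1.08, SE 0.38) and by Siva1 (0.95, SE 0.29), an apoptosis factor. Pcna was 26.7 to 64.2 CPM in control and 94.0 to 96.8 in model, with no overlap. Chek1 and Pcna are expressed mainly in dividing cells. The mitosis markers were also higher in model, as given above, and their part in the values of these genes was not tested. The lower genes were Trp53inp1 (-0.85, SE 0.27), a stress gene that p53 induces, and Btg2 (-0.78, SE 0.28), an antiproliferative gene. Trp53inp1 was 114 to 181 CPM in control and 60.8 to 86.9 in model. Btg2 was 129 to 228 CPM in control and 99.1 to 120 in model. Both were apart and lower in model, as was the regulator Cop1, against 6.61% of all genes. Cdkn1a, Ccng2, Cd82 and Fas of the 10 genes were apart in that direction too. The 6 higher genes (Chek2, Siva1, Pcna, Chek1, Pidd1 and Ppm1d) were apart in the other direction, against 10.4% of all genes. The wider list thus went both ways.

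By role, the tested regulators of p53 had, in model against control, a median of 0.36 on the log2 scale (9 of 11 above 0), and the DNA repair genes had 0.37 (4 of 6 above 0). The cell cycle arrest genes had a median of -0.24 (6 of 9 below 0) and the apoptosis genes 0.15 (9 of 15 above 0). In Rhy against model, 0 of the 50 were higher and 3 lower at an unadjusted p under 0.05, against 1.74% and 1.98% of all genes, and 0 passed an adjusted p of 0.05 with edgeR. These were Apaf1 (log2 fold change -0.80, SE 0.27), the scaffold of the apoptosome, Ddb2 (-1.17, SE 0.42), a sensor of ultraviolet lesions, and Trp53bp1 (-0.61, SE 0.23), a protein of double-strand break repair. The regulators Mdm4 (-0.71, SE 0.38) and Chek2 (-0.45, SE 0.27), and the AKT inhibitor Phlda3 (0.40, SE 0.27), came next by p. Apaf1 alone of the first 3 was apart between the groups, at 23.5 to 31.4 CPM in model and 13.6 to 18.3 in Rhy.

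In DXM against model, 3 of the 50 were higher and 1 lower at an unadjusted p under 0.05, against 4.89% and 2.8% of all genes, and 0 passed an adjusted p of 0.05 with edgeR. These shares are near the background. Among the higher genes were Thbs1 (log2 fold change 2.13, SE 0.84), a secreted matrix glycoprotein, and Igfbp3 (1.42, SE 0.61), which binds insulin-like growth factors. Thbs1 was 20.5, 38.7 and 270 CPM in the 3 DXM mice and 23.7 to 27.1 CPM in the model mice, so that the groups overlapped and DXM 3 carried most of the mean. Igfbp3 was 63.7 to 105 CPM in DXM and 32.5 to 35.8 CPM in model, with no overlap. Smooth muscle markers (5754 to 10184 CPM in DXM, 4214 to 5482 in model) and fibroblast markers (850 to 1783 CPM in DXM, 459 to 537 in model) were also apart between these groups. So were macrophage markers (98.5 to 256 CPM in DXM, 81.5 to 88.2 in model). The sum of neutrophil markers, nearly all of it Ly6g, was apart as well (198 to 282 CPM in DXM, 30.4 to 118 in model). S100a8, S100a9, Csf3r and Cxcr2 were each under 5 CPM in every library, and of these only S100a8 was apart. In control the sum was 3.29 to 687 CPM, so it describes Ly6g rather than neutrophils. The part of these markers in the values of Thbs1, Igfbp3, Sesn2 and Mdm2 was not tested. The third higher gene was Phlda3 (0.66, SE 0.27), the lower gene was Apaf1 (-0.60, SE 0.27), and Chek2 (-0.56, SE 0.27) and Sesn3 (-0.47, SE 0.23), a further sestrin, came next.

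**Figure D4:**
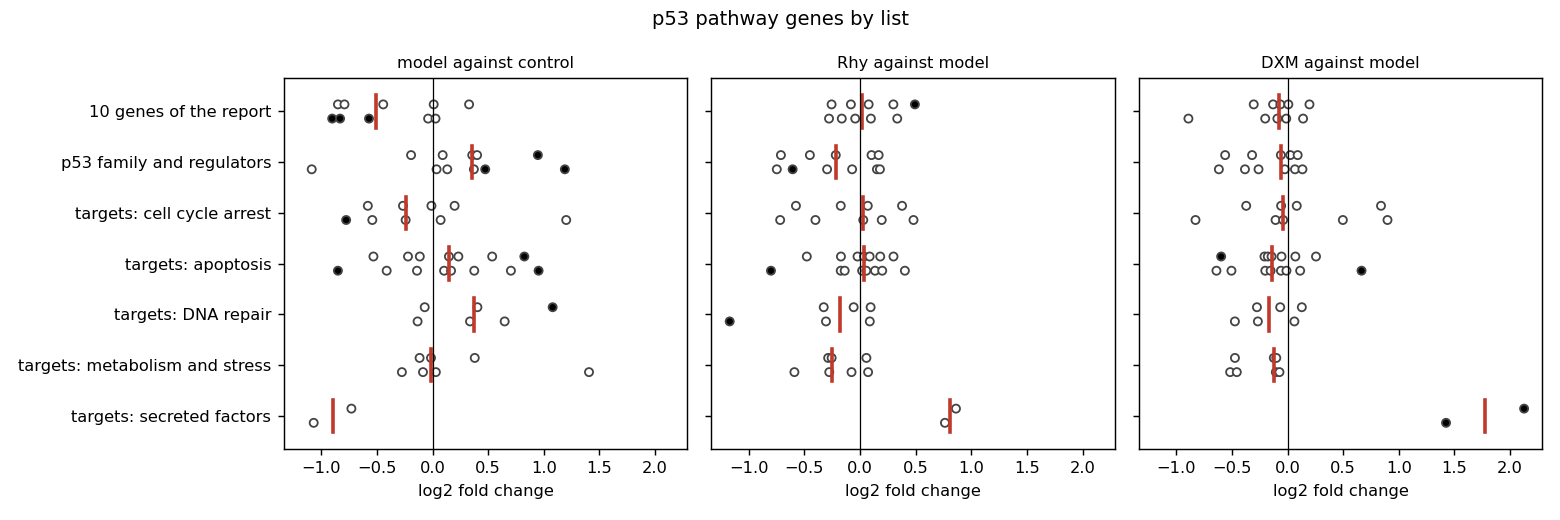
Fitted log2 fold change of each tested p53 gene in 3 comparisons, by list, with the 10 genes in the top row. Each point is a gene, filled where the unadjusted p was under 0.05, and the vertical bar is the median of the list. In model against control the medians run from -0.90 for the 2 secreted factors to 0.37 for the DNA repair genes.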

How the data were processed

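RNA-seq was analysed in 12 colon libraries, 3 for each of the 4 groups. The authors deposited raw read counts per gene, not normalized, and FPKM, which proved to be those counts over gene length and a library constant. FPKM served for levels between genes and for limma. The submitters' processing notes name mm10, HISAT2 2.0.5, featureCounts 1.5.0-p3 and DESeq2 1.16.1, with no roles. Whether counting used strand is not given in the sources used here. In GENCODE M21, 2 of the 10 genes share exon bases with another gene: an antisense gene held at most 0.549% of the count of Cdkn1a, and a gene on the strand of Bax held 0 counts. A Trp53 pseudogene held at most 1.31% of the Trp53 count.

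The main test was edgeR 4.0.16 (R 4.3.3): filterByExpr with a minimum count of 10, TMM, and the two-sided quasi-likelihood test on group means of all 12 libraries, with Benjamini-Hochberg adjustment over 16904 genes. An SE is the log2 fold change over the root of F. Correlations took log2 CPM (prior count 2). Alternatives were DESeq2 1.42.0, limma 3.58.1 on log2(FPKM + 1) and log2(FPKM + 0.1), RLE and upper-quartile scaling, any count, the compared groups alone, a replicate block, model mice 1 and 2 summed, a Hoxb13 term (under 5 CPM) and each library left out. A mitochondrial term, only libraries with Hoxb13 of 5 CPM or more, and the block on the compared groups were added after seeing the data. The code was tested on simulated data.

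The 10 genes and the lists were chosen with earlier results of these data known. Also named were up to 6 genes of the other p53 lists with the smallest unadjusted p in each main comparison, and 2 genes per member by Pearson r. A gene of these lists is not reported here. The labels do not pair model with control by replicate number. Same-numbered libraries of these groups deviated together (r = 0.21, 0.10 and 0.36), but this cannot decide whether they were paired. Of the model libraries, 2 were nearly alike, so they cannot be matched separately to control libraries. The r of 0.36 came from 2 libraries that both had Hoxb13 under 5 CPM. The labels do not state that samples of a group are separate animals, so p-values measure the spread between these samples. Of the table columns, 0 belonged to no listed sample.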

Additional observations from a re-analysis of the deposited data

How the results depend on the processing

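Of the 35 log2 fold changes larger than their SE, 0 changed sign in 704 recalculations. Of the other 25, which lay within 1 SE of 0, 66 of 486 recalculations changed sign. The count of the 10 genes at an adjusted p under 0.05 was 0 in each comparison, and it was also 0 in each alternative for model against control and Rhy against model. It became 1 (Sesn2) in DXM against model and 1 in DXM against control with DESeq2 on only the groups compared, 3 in DXM against control and 3 in DSS-exposed against control with DESeq2 on all libraries. With the mitochondrial term it became 1 in Rhy against control, 2 in DXM against control and 4 in DSS-exposed against control, and with only libraries of Hoxb13 at 5 CPM or more 2 in DSS-exposed against control. Over all genes the number passing moved too. In model against control it was 0 with edgeR, 46 with DESeq2 on all libraries and 167 with DESeq2 on only the groups compared. For the comparisons whose counts rose it is not given here.

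The count at an unadjusted p under 0.05 moved by more than 1.5 times as follows. Brackets hold the number of all genes called, for some settings only, and it moved as well. In model against control (3 genes, 1626 of all) it was 5 with genes of any count (2014, with more genes tested). It was 5 with DESeq2 on only the groups compared (1746) and 5 with Hoxb13 at 5 CPM or more (2686). In Rhy against model (1 gene, 628 of all) it was 0 with any count (972) and 2 with only the groups compared (824). It was 2 with DESeq2 on those groups (1021). It was 0 with model mice 1 and 2 as 1 library (283) and 0 with Hoxb13 at 5 CPM or more (1453). In DXM against model (0 genes, 1300 of all) it was 1 with any count and 1 with only the groups compared. It was 1 with DESeq2 on those groups and 1 with the mitochondrial term. In Rhy against control (2 genes, 1953 of all) it was 1 with only the groups compared. It was 4 with Hoxb13 at 5 CPM or more and 6 with the mitochondrial term. The number of all genes called with these settings is not given here. The rise to 6 is therefore no result about these genes in particular. With each library left out in turn, the count in Rhy against model ranged from 0 to 1. It was 0 without model 1 (289), model 2 (293), model 3 (1007) or Rhy 2 (610). Without Rhy 1 it was 1 (1066), Sesn2 in place of Cd82. In DXM against model it ranged from 0 to 2, with 2 without DXM 1. In Rhy against control it ranged from 1 to 4, with 4 without Rhy 1 and 1 without control 2, Rhy 2 or Rhy 3. In DSS-exposed against control (2882 of all with every library) it ranged from 2 to 6, with 2 without control 2. Where the number of all genes is not given for a setting, its count is no result about these genes in particular. The causes of these moves were not tested.

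The replicate block left the count in model against control at 3 and changed no adjusted call in any comparison. In the other comparisons of single groups, the r of same-numbered libraries ran from -0.31 (replicate 1, Rhy against control) to 0.14 (replicate 2, Rhy against model), most of them below 0. With 3 mice a group, the smallest exact permutation p was 0.1.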
